A study of Mus musculus with 83 samples.

Results

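The genes described here are 10 members of the cadherin family, Cdh4, Cdh6, Cdh7, Cdh8, Cdh9, Cdh10, Cdh11, Cdh12, Cdh13 and Cdh18, out of 48795 genes in the count table. They were taken as a fixed list of gene names, chosen with earlier results of these data known. The names were matched to the Ensembl identifiers of the table, and all 10 were found. RNA was sequenced from pools of 125 neurons that a laser had cut from frontal cortex sections (14 µm) of male mice of the C57BL/6 strain, with a stranded total RNA kit for very small inputs. Mice were old (22 months) or young (2 months), with 12 old and 9 young animals in the series, and no other treatment or allele is given. The 4 neuron types were pyramidal cells (PYC) and interneurons that express parvalbumin (PV), somatostatin (SST) or vasoactive intestinal peptide (VIP), each recognised by a stain for its marker gene, Slc17a7, Pvalb, Sst or Vip. There were 12 old libraries of each type, with 9 young ones of each type except PV, which had 8, and 83 in all. A pool picked by 1 stained gene mixes the subtypes and cortical layers that share it.

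Classical cadherins are cell surface proteins that bind the same or a related cadherin on a neighbouring cell in the presence of calcium. Their cytoplasmic tails bind catenins, which link them to actin. Cdh4 (R-cadherin) is a type I cadherin, while Cdh6, Cdh7, Cdh8, Cdh9, Cdh10, Cdh11, Cdh12 and Cdh18 are type II cadherins. Cdh13 (T-cadherin) has no cytoplasmic tail and is held in the membrane by a lipid anchor. In binding studies, type II cadherins fall into groups whose members bind each other, and Cdh6, Cdh9 and Cdh10 form one such group, Cdh8 and Cdh11 belong to another, and Cdh7, Cdh12 and Cdh18 to one more. In cortex, cadherins are known for their part in matching of synaptic partners and in sorting of neurons during development.

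Of the 10 genes, 5 lie on chromosome 15, which are Cdh6, Cdh9, Cdh10, Cdh12 and Cdh18, and 3 lie on chromosome 8, which are Cdh8, Cdh11 and Cdh13. RefSeq promoter sequences (GRCm38.p6, 250 bases before to 50 after the start of transcription) were at hand for 7 of the 10, and Cdh4, Cdh11 and Cdh13 are only named. Among these 7 promoters, compared in pairs on both strands, the longest shared run was 15 bases, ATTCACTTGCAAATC, in Cdh6 and Cdh9. It begins 18 bases before the start of Cdh6 and 209 bases before that of Cdh9, and on either strand it occurs in 2 of 32851 RefSeq promoters of the same length (0.00609%), which are these 2. Runs of 13 bases came next, and AGCCAATCAGAGA was shared by Cdh9 (76 bases before the start) and Cdh18 (64 bases before the start). This run occurs in 31 of 32851 promoters (0.0944%). The 3 promoters are shown because Cdh9 shares a run with each of the other 2. The 3 genes had their highest means in different neuron types, though for Cdh6 no type passed the test described below. Capitals mark the shared runs, and each line reads 5′ to 3′ along the strand of its gene, with Cdh6 at chr15:13173626-13173925 (minus strand), Cdh9 at chr15:16728665-16728964 (plus strand) and Cdh18 at chr15:23036213-23036512 (plus strand, at a start inside the longer gene model used below).
Cdh6: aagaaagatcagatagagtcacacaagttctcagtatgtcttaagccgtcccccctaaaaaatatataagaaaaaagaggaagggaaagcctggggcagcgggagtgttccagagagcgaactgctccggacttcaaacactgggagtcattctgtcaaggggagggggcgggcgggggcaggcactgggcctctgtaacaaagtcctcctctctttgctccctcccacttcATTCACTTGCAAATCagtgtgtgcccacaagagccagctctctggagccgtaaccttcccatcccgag
Cdh9: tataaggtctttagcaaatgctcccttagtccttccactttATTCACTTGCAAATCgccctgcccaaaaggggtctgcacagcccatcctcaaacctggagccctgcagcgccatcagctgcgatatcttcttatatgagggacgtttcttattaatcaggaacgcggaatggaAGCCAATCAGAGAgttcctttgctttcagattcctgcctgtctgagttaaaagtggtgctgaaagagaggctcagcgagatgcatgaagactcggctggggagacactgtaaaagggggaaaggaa
Cdh18: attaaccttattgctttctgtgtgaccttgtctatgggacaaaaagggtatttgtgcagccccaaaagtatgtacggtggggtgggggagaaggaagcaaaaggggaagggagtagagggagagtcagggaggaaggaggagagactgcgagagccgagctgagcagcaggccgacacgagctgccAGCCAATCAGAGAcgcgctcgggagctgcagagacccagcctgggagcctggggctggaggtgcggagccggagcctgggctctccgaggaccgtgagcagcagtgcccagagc
A shared run is a match of letters and says nothing of what binds there.

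Counts per library ran from 1.46 to 27.17 M (M, mega) around a median of 6.99 M, so that 3 counts, taken as the limit of what a count of 0 allows, stood for 0.110 to 2.06 CPM (counts scaled to a library total of 1 M). The stained genes had picked the cells, so they check only the capture. Marker sums that include them averaged highest in the pools of the matching label. For PV, SST and VIP markers these means were 2485, 4547 and 2517 CPM, against at most 644, 763 and 189 CPM in another type. Slc17a7, the vesicular glutamate transporter of cortical pyramidal cells, averaged 822 ± 278 CPM in PYC pools (SD, n = 21), and was also present in VIP pools at 471 ± 120 CPM, in SST pools at 348 ± 72.5 CPM and in PV pools at 257 ± 75.1 CPM. All 12 pyramidal markers had counts in interneuron pools of each type, and their sum ran from 4353 to 6628 CPM in PYC, 1708 to 3515 CPM in PV, 1908 to 3449 CPM in SST and 2743 to 4918 CPM in VIP pools. Glial markers were present too. Summed astrocyte markers averaged 2462 CPM in VIP, 2391 in PYC, 2054 in SST and 1651 CPM in PV pools. Summed oligodendrocyte markers averaged 994 CPM in SST, 750 in PYC, 726 in VIP and 597 CPM in PV pools. The part of glial RNA in the cadherin values was not tested. In 2 old VIP libraries, replicates 9 and 11, Sst stood at 439 and 331 CPM. In 6 libraries mitochondrial transcripts took under 3% of counts. A pool gives the sum over its cells, so fewer cells that express a gene and less RNA per cell cannot be told apart. Values of cadherins below are CPM, and levels of different genes are compared as CPM per kilobase (kb) of exon unless stated.

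The first comparison asked in which neuron type each cadherin was high or low. Each type was set against the mean of the other 3 types in 1 edgeR fit of all 83 libraries with age as a covariate, and a gene was called at a Benjamini-Hochberg adjusted p under 0.05. All 10 cadherins passed the filter on low counts, and of their 830 values 5 were 0. Of the 10, 7 were called in at least 1 type, where 21.8% of the 15549 genes tested were called. The list was chosen with earlier results of these data known, so such counts beside the background are a description and not a test. In SST pools 4 were higher (background 3.10%) and 0 lower (1.86%). In PV pools 2 were higher (6.75%) and 4 lower (7.66%), in PYC pools 2 were higher (6.12%) and 1 lower (4.77%), and in VIP pools 0 were higher (4.33%) and 2 lower (3.20%). Cdh6, Cdh8 and Cdh12 were called in none. The 4 comparisons of a gene depend on each other, since a low level in 1 type raises the values of the other 3. The median log2 fold change of the 10 was -0.61 in PV, 0.09 in PYC, 0.21 in SST and 0.21 in VIP, beside -0.05, 0.00, 0.03 and 0.07 over all genes tested.

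**Figure D1:**
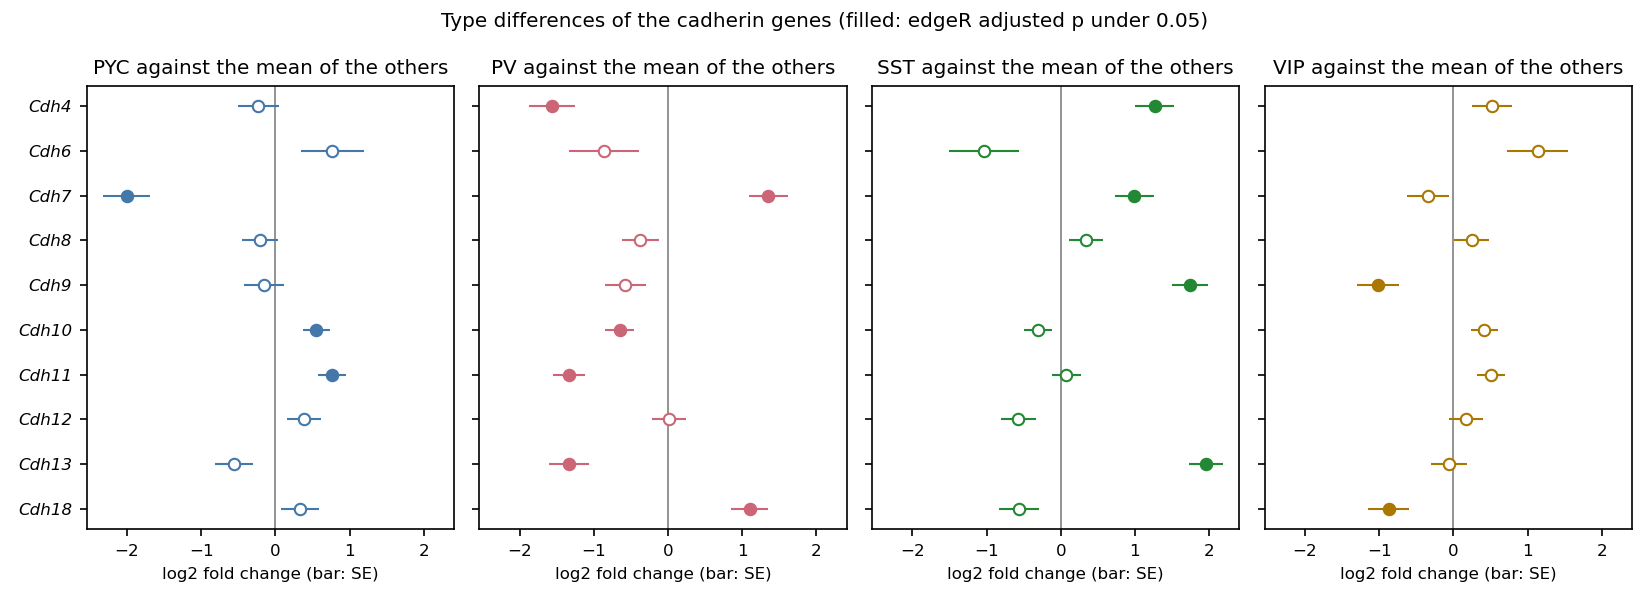
Log2 fold change of each cadherin in 1 neuron type against the mean of the other 3, with the standard error as a bar and filled points for an edgeR adjusted p under 0.05. Cdh13 and Cdh9 lie farthest to the right in SST, at 1.96 and 1.74, and Cdh7 lies on opposite sides in PV (1.35) and PYC (-2.004).

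Cdh13, the lipid-anchored T-cadherin (ENSMUSG00000031841, chromosome 8, 118283733 to 119324921, plus strand, GRCm38), was higher in SST pools. It had 161 CPM at the lowest, 278 at the median and 484 at the highest in SST pools, against 0.528, 54.7 and 232 CPM in PYC, 20.4, 46.0 and 90.5 CPM in PV, and 11.6, 80.9 and 201 CPM in VIP pools. Of 21 SST pools, 19 lay above every pool of the other types, and no PV pool, 3 PYC pools and 4 VIP pools lay above the lowest SST pool. The mean was 289.6 ± 75.1 CPM in SST (SD, n = 21), 1.96 ± 0.23 (SE) in log2 fold change over the mean of the others (edgeR adjusted p = 1.36e-10). One of the 4 high VIP pools, old VIP replicate 11, had 331 CPM of Sst, while the other 3 VIP pools had 0.478 to 34.8 CPM and the 3 PYC pools 2.66 to 16.8 CPM of Sst. The part of SST cells in those pools was not tested. Cdh13 was lower in PV pools, with a log2 fold change of -1.34 ± 0.27 (adjusted p = 8.32e-05). Its spread within a type was least in SST, with a coefficient of variation of 25.9%, and most in PYC, with 84.8%. In PYC the log2 fold change was -0.56 ± 0.25 (adjusted p = 0.181) and was not called, while limma-voom gave -1.31 ± 0.27 (adjusted p = 8.17e-05) and young libraries alone gave -1.15 ± 0.33 (adjusted p = 0.0264).

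**Figure D2:**
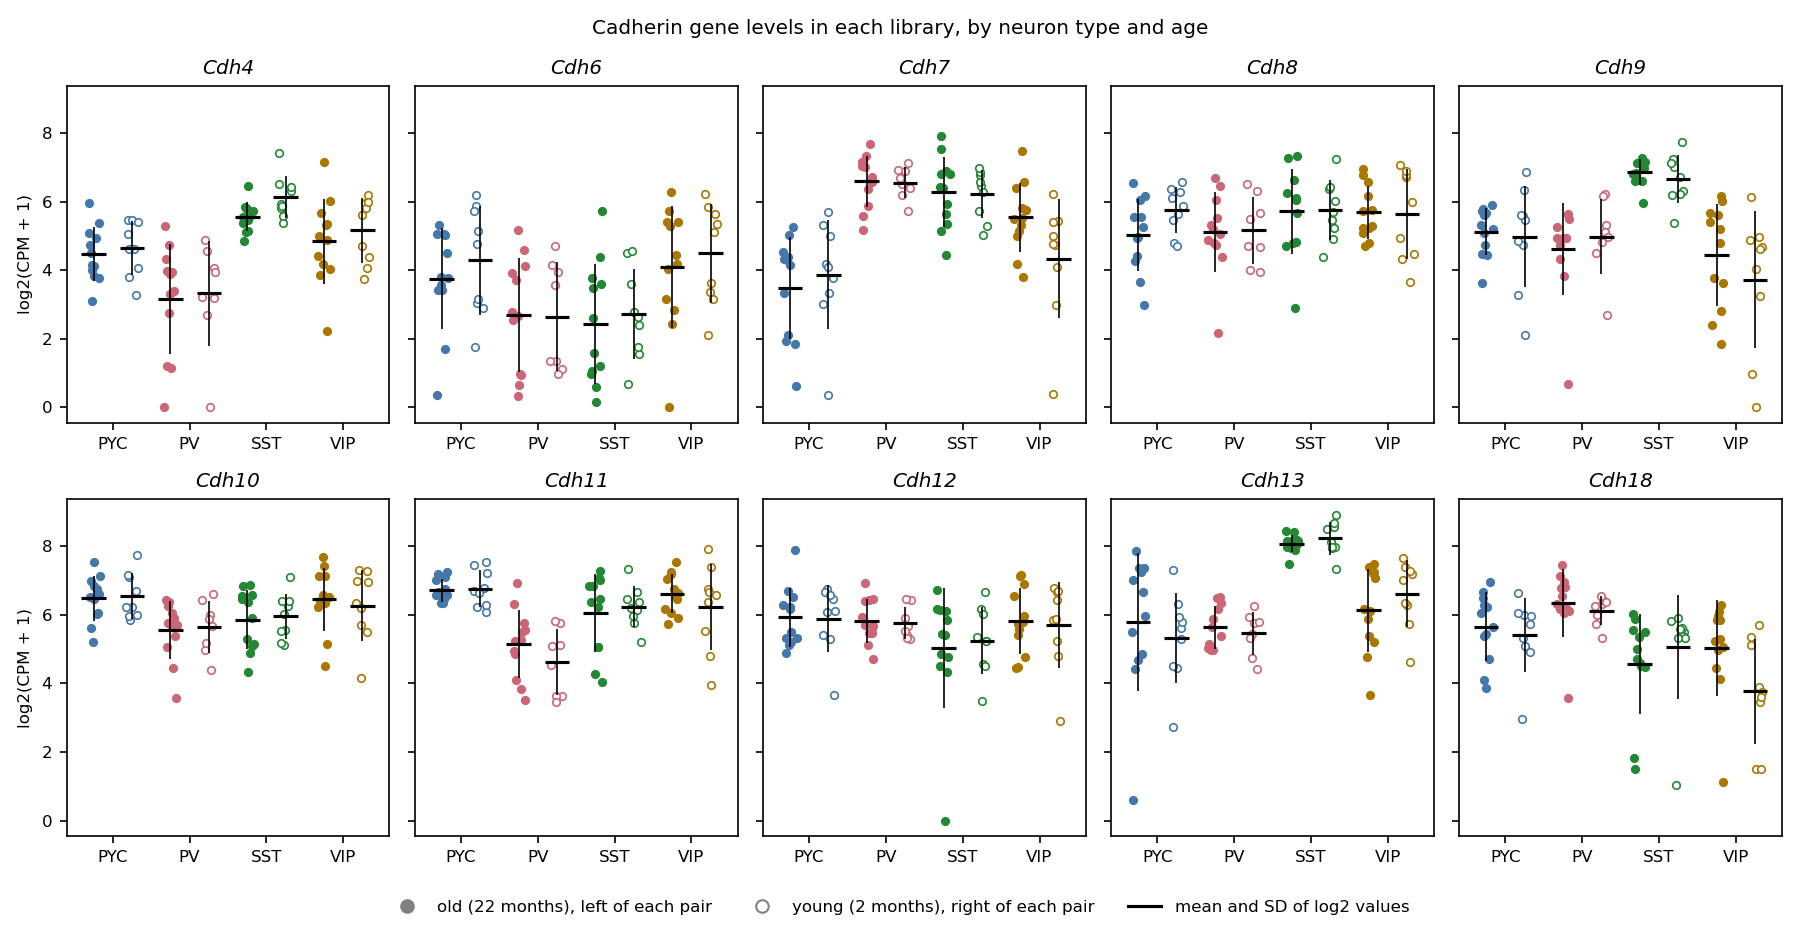
Level of each cadherin in every library, as log2(CPM + 1), by neuron type, with old libraries as filled and young libraries as open points, and the mean and SD of the log2 values as lines. Cdh13 and Cdh9 stand high in SST pools of both ages, Cdh7 stands low in PYC pools, and old and young points overlap in every panel.

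Cdh4, the type I R-cadherin (ENSMUSG00000000305, chromosome 2, 179442431 to 179899373), was higher in SST and lower in PV pools. It had 27.8, 54.5 and 169.5 CPM as the lowest, median and highest of SST pools, against 7.61, 23.4 and 60.7 CPM in PYC, 0, 11.7 and 38.1 CPM in PV, and 3.72, 31.2 and 141 CPM in VIP pools. All 21 SST pools lay above the median of the other pools, and all 20 PV pools lay below the median of the rest. Against the other types it stood at 1.27 ± 0.26 (log2, SE) in SST (edgeR adjusted p = 0.000229) and -1.56 ± 0.31 in PV (adjusted p = 4.27e-05). Of the 2 libraries without a count of Cdh4, both were PV pools. In the order of means, SST, VIP, PYC and PV, the neighbours SST and VIP differed by 0.56 ± 0.34 and VIP and PYC by 0.57 ± 0.34, and neither passed (PYC minus VIP was -0.57, with a 95% interval from -1.23 to 0.10), while PYC was above PV by 1.002 ± 0.35 (adjusted p = 0.0361).

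In the group of Cdh6, Cdh9 and Cdh10, 3 type II cadherins on chromosome 15, each gene had its highest mean in a different neuron type. For Cdh6 (highest in VIP) and Cdh10 (highest in PYC), however, PYC and VIP pools did not differ by a called amount. PYC minus VIP was -0.28 for Cdh6 (edgeR adjusted p = 0.91) and 0.10 for Cdh10 (adjusted p = 0.924). Cdh9 (ENSMUSG00000025370, 16728756 to 16857094) had 40.5, 112 and 213 CPM as the lowest, median and highest of SST pools, against 3.30, 38.6 and 116 CPM in PYC, 0.618, 29.8 and 73.2 CPM in PV, and 0, 24.7 and 71.1 CPM in VIP pools. All 21 SST pools lay above the median of the other pools and 10 of them above every other pool. The log2 fold change of Cdh9 was 1.74 ± 0.25 (SE) in SST (edgeR adjusted p = 3.03e-08) and -1.01 ± 0.28 in VIP (adjusted p = 0.0109). PYC, PV and VIP pools did not differ from each other in Cdh9 by a called amount, and PYC minus VIP was 0.65 with a 95% interval from 0.00 to 1.29.

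Cdh10 (ENSMUSG00000022321, 18818947 to 19014236) averaged 99.2 ± 45.7 CPM in PYC and 96.8 ± 51.1 CPM in VIP pools (SD, n = 21 each), against 66.7 ± 33.2 CPM in SST (n = 21) and 53.2 ± 24.0 CPM in PV pools (n = 20). It was higher in PYC, by 0.55 ± 0.18 (SE; edgeR adjusted p = 0.0314), and lower in PV, by -0.65 ± 0.20 (adjusted p = 0.0120), on the log2 scale. Between pairs, PYC was called above PV alone, and PYC minus SST was 0.64 ± 0.23 (edgeR adjusted p = 0.0624). PV minus SST was -0.26 ± 0.23 and was not called. All types overlapped, and 47 of 62 other pools lay above the lowest PYC pool. The call in PYC was lost with DESeq2 (adjusted p = 0.0554), with RLE size factors (adjusted p = 0.0563), with the F number in the sample titles as a covariate (adjusted p = 0.241), and without any one of old PYC replicates 1, 7 and 9 and young PYC replicates 3, 7 and 8 (adjusted p = 0.0510 to 0.115).

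Cdh6 (ENSMUSG00000039385, 13028701 to 13173675) had the lowest levels per kb of the 10 genes in PV, SST and VIP pools. It had 0, 20.5 and 75.9 CPM as the lowest, median and highest of VIP pools, against 0.277, 12.9 and 71.6 CPM in PYC, 0.268, 5.61 and 34.8 CPM in PV, and 0.109, 5.04 and 51.6 CPM in SST pools. The ranges overlapped throughout. The log2 fold change in VIP was 1.13 ± 0.42 (SE) and was not called by edgeR (adjusted p = 0.0817), while DESeq2 (1.18 ± 0.40, adjusted p = 0.0402) and limma-voom (1.40 ± 0.44, adjusted p = 0.0259) called it.

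Cdh6 and Cdh10 had the most similar patterns of any pair of the 10. Over the 83 libraries Pearson's r of log2(CPM + 1) was 0.56, and with the mean of each type removed it was 0.48. Within types r was 0.65 in PYC, 0.58 in SST, 0.40 in VIP and 0.35 in PV. Among the genes tested, with Gm, Rik and pseudogene names left out, Cdh10 had the highest r with Cdh6 and Cdh6 the highest with Cdh10. These values describe pools that share libraries, depth and the mice behind them. For Cdh9, of the same binding group, r was -0.13 with Cdh6 and 0.07 with Cdh10. Cdh9 and Cdh13, which were both high in SST pools, had r of 0.33 over all libraries and -0.06 with the mean of each type removed. Within types their r was -0.26 in PYC, -0.20 in PV, 0.18 in SST and 0.15 in VIP.

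**Figure D3:**
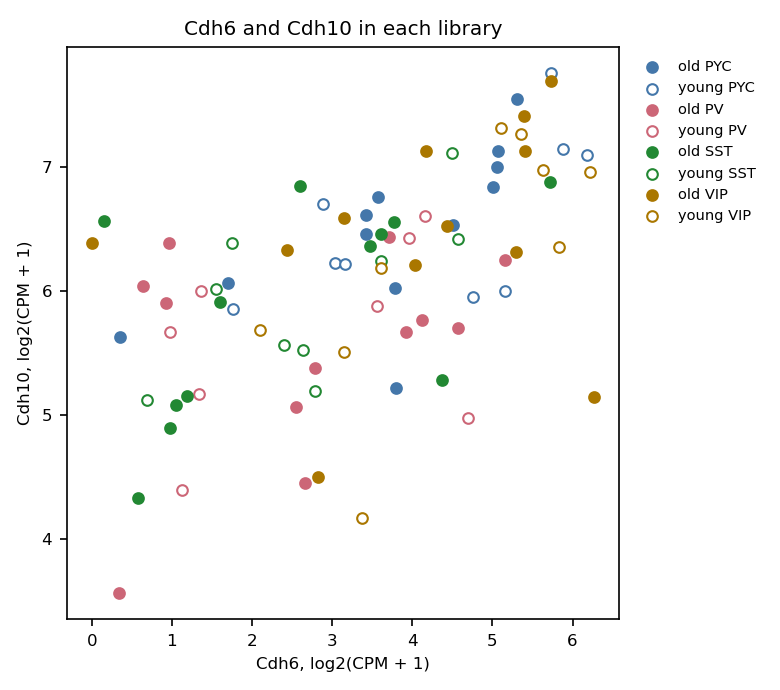
Cdh10 against Cdh6 as log2(CPM + 1) in each of the 83 libraries, coloured by neuron type, with filled points for old and open points for young libraries. Pools with more Cdh6 tended to hold more Cdh10 within each type, with r from 0.35 in PV to 0.65 in PYC.

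Of the group of Cdh8 and Cdh11, Cdh11 (ENSMUSG00000031673, chromosome 8, 102632095 to 102785642) was higher in PYC and lower in PV pools. It had 66.2, 100.5 and 187 CPM as the lowest, median and highest of PYC pools, against 9.92, 33.3 and 120 CPM in PV, 15.4, 81.5 and 160.0 CPM in SST, and 14.5, 95.1 and 242 CPM in VIP pools. Of 20 PV pools 19 lay below the median of the rest. The log2 fold change was 0.76 ± 0.19 (SE) in PYC (edgeR adjusted p = 0.00148) and -1.34 ± 0.22 in PV (adjusted p = 3.31e-07). VIP pools were near PYC pools, with a PYC minus VIP value of 0.19 and a 95% interval from -0.27 to 0.66. PYC minus SST was 0.52 with an interval from 0.05 to 0.98 (edgeR adjusted p = 0.221). Between pairs, PYC was thus called above PV alone. The order of the types by Cdh11 and by Cdh10, PYC, VIP, SST and PV, was also their order by Slc17a7, and the part of pyramidal RNA in interneuron pools in these values was not tested. Cdh8 (ENSMUSG00000036510, 99024471 to 99416471) did not differ by a called amount between any 2 types. It averaged 65.6 ± 43.9 CPM in SST, 62.1 ± 39.9 CPM in VIP, 47.3 ± 26.1 CPM in PYC (SD, n = 21 each) and 42.5 ± 27.8 CPM in PV pools (n = 20), and the 95% interval of its widest pair, PV minus SST, ran from -1.12 to 0.04. In the GENCODE annotation, exons of Cdh8 share 23 bases with the antisense gene Gm15679, those of Cdh9 share 224 bases with the antisense gene Gm49127, and those of Cdh12 share 198 bases with Gm49685 on the same strand. The labels do not say how reads in shared bases were counted.

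In the group of Cdh7, Cdh12 and Cdh18, Cdh7 and Cdh18 were higher in PV pools. Cdh7 (ENSMUSG00000026312, chromosome 1, 109982431 to 110140157) had 34.9, 99.2 and 202 CPM as the lowest, median and highest of PV pools, 20.9, 84.4 and 241 CPM in SST pools and 0.321, 39.2 and 177 CPM in VIP pools, against 0.281, 16.6 and 51.0 CPM in PYC pools. All 21 PYC pools lay below the median of the rest. In log2 fold change Cdh7 was at 1.35 ± 0.26 (SE) in PV (edgeR adjusted p = 3.25e-05), 0.99 ± 0.26 in SST (adjusted p = 0.00834) and -2.004 ± 0.32 in PYC (adjusted p = 3.99e-07). PYC was below each interneuron type, by -2.52 ± 0.36 against PV, -2.25 ± 0.35 against SST and -1.25 ± 0.35 against VIP (adjusted p = 2.06e-08, 5.15e-07 and 0.0111). PV minus SST was 0.27 with a 95% interval from -0.40 to 0.93. SST minus VIP was 0.998 ± 0.34 (edgeR adjusted p = 0.0879), so that SST was called above PYC alone.

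Cdh18 (ENSMUSG00000040420, chromosome 15, 22549022 to 23474418) had 10.96, 78.7 and 174 CPM as the lowest, median and highest of PV pools, against 6.73, 52.0 and 123 CPM in PYC, 1.07, 39.9 and 63.8 CPM in SST, and 1.17, 32.1 and 77.7 CPM in VIP pools. Of 20 PV pools 18 lay above the median of the others, though the ranges overlapped. Against the other types it stood at 1.10 ± 0.25 (log2, SE) in PV (edgeR adjusted p = 0.000386) and -0.87 ± 0.28 in VIP (adjusted p = 0.0331). Between pairs, PV was called above SST and VIP but not PYC (PYC minus PV was -0.575 ± 0.32, adjusted p = 0.297). VIP was called below PV alone, with PYC minus VIP at 0.90 ± 0.32 (adjusted p = 0.0735). The VIP call was lost without the 6 libraries low in mitochondrial counts (-0.75 ± 0.28, adjusted p = 0.107) and without any one of young VIP replicates 1, 3, 4, 5, 6 and 9 (adjusted p = 0.0526 to 0.0576). In old libraries alone the VIP value was -0.48 ± 0.33 (adjusted p = 0.636), and in young libraries alone it was -1.48 ± 0.45 (adjusted p = 0.0428). Cdh12 (ENSMUSG00000040452, chromosome 15, 20449265 to 21589533) was called in no type and no pair, with means of 70.7 ± 46.9 CPM in PYC, 66.7 ± 40.3 CPM in VIP, 45.3 ± 28.2 CPM in SST (SD, n = 21 each) and 58.6 ± 24.4 CPM in PV pools (n = 20).

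Over the 6 pairs of types, 22 of 60 values were called, and the same 7 genes were called in at least 1 pair, where 23.0% of all tested genes were. PYC and PV differed in 4 of the 10 (14.3% of all genes tested), PYC and SST in 4 (8.64%), PV and SST in 5 (8.08%) and SST and VIP in 2 (3.90%). PV and VIP differed in 6 of the 10 (Cdh4, Cdh10, Cdh11 and Cdh13 lower and Cdh7 and Cdh18 higher in PV) where 13.5% of genes were called. PYC and VIP differed in 1, Cdh7, where 7.23% of genes were called.

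Per kb of exon, the 10 genes together summed to 115.7 ± 17.9 CPM per kb in SST, against 77.7 ± 16.4 in PYC, 76.5 ± 15.6 in VIP (SD, n = 21 each) and 69.5 ± 10.7 in PV pools (n = 20). Cdh9 and Cdh13 made up 27.9 ± 7.8% and 22.3 ± 4.8% of that sum in SST pools (SD, n = 21). Cdh9 had the highest level per kb in 15 of 21 SST pools and Cdh13 in the other 6. In PV pools Cdh18 held 26.5 ± 10.2% (SD, n = 20) and was the highest per kb in 13 of 20. No gene led in PYC pools, where Cdh9 was the highest in 7 libraries, Cdh11 in 5, Cdh12 and Cdh18 in 4 each and Cdh13 in 1, or in VIP pools, where Cdh12 was the highest in 6 of 21. Exon length was taken over all annotated exons of a gene, so a level per kb is low where a long form is little used. These leads depend on that length, which was 3.54 kb for Cdh9, 4.55 for Cdh18, 10.04 for Cdh7 and 11.23 kb for Cdh13. By CPM alone Cdh13 was the highest in all 21 SST pools, and in PV pools Cdh7 was the highest in 9 and Cdh18 in 6.

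**Figure D4:**
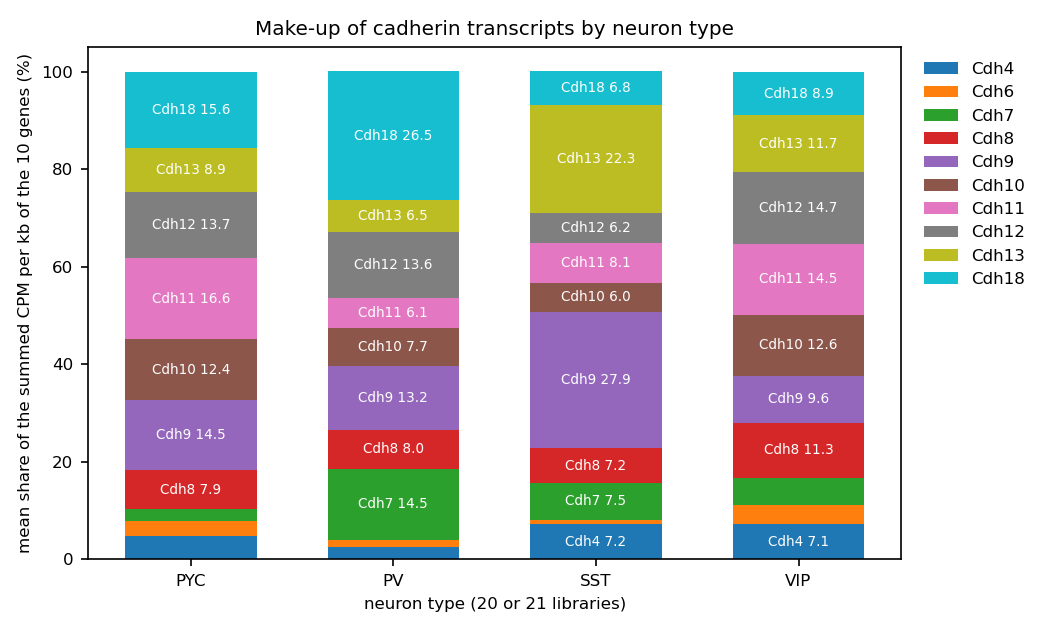
Mean share of each gene in the summed CPM per kb of the 10 cadherins, in percent, for each neuron type (20 PV libraries, 21 of each other type). Cdh9 and Cdh13 take 27.9% and 22.3% in SST, Cdh18 takes 26.5% in PV, and no gene takes more than 16.6% in PYC or 14.7% in VIP.

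The 10 genes were also used together to place each library with a type, a description chosen after the data were seen. The log2(CPM + 1) of each gene was scaled by its mean and SD over the libraries of the other age. Each library was then placed with the type whose mean profile of the other age was nearest. Of 48 old libraries set against the young profiles, 36 were nearest to their own type, with 12 of 12 SST, 11 of 12 PYC, 10 of 12 PV and 3 of 12 VIP. Of the 9 old VIP libraries placed elsewhere, 5 were nearest to PYC, 2 to PV and 2 to SST. Of 35 young libraries set against the old profiles, 28 were nearest to their own type, with 8 of 9 SST, 8 of 9 VIP, 7 of 8 PV and 5 of 9 PYC, and the other 4 PYC libraries were nearest to VIP. PYC and VIP, the pair with 1 called cadherin, were the pair most often exchanged. The same count was 43 of 48 and 30 of 35 for 11 large cadherin superfamily genes and 40 of 48 and 32 of 35 for 11 protocadherins outside the gene clusters, both above the 10 cadherins, and it was 27 of 48 and 24 of 35 for 16 catenins and partner genes.

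The genes whose pattern over the 83 libraries was most like that of a cadherin differed by member. For Cdh13 they were Nos1, the neuronal nitric oxide synthase (r = 0.77), Grin3a, an NMDA receptor subunit (0.72), and Ndn (0.71), and Nos1 and Grin3a are in the list of SST markers. For Cdh7 they included the vesicular GABA transporter gene Slc32a1 (0.68) and Ubash3b (0.67). For Cdh11 they were the sodium channel gene Scn2a (0.67), the calcium pump gene Atp2b4 (0.65) and Rasal1 (0.63), and for Cdh4 the adenylyl cyclase gene Adcy2 (0.64), Chd3 (0.62) and Ildr2 (0.59). For Cdh9 the retinol-binding protein gene Rbp4 came first (0.62), and it averaged 64.9 CPM in SST against 5.10 to 18.3 CPM in the other types. The highest r was 0.56 for Cdh12 (Ano4), 0.48 for Cdh18 (Epb41) and 0.40 for Cdh8 (Eftud2).

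Other genes of cadherin adhesion were counted in the same fit, against the shares of all tested genes given above, which were 6.75% higher and 7.66% lower in PV, 3.10% and 1.86% in SST, 6.12% and 4.77% in PYC, and 4.33% and 3.20% in VIP pools. Of 13 other cadherin genes 7 passed the filter on low counts. Against the mean of the other types the sole call was for the type I N-cadherin gene Cdh2, lower in PV pools (-0.97 ± 0.16, SE, edgeR adjusted p = 2.69e-07). Of 16 catenins and partners, 1 was higher and 6 lower in PV pools, among them the phosphatase receptor gene Ptprf (-1.45 ± 0.19) and the junction scaffold gene Afdn (-0.58 ± 0.14) lower and the catenin family gene Pkp4 (0.69 ± 0.10) higher. In SST pools 2 of the 16 were higher, Ctnnd2, the delta-catenin of neurons (0.30 ± 0.08), and the scaffold gene Magi2 (0.36 ± 0.11), and 0 were lower. In PYC pools 2 were higher, Ptprf and Magi2, and 1 lower, Pkp4, and in VIP pools 2 were higher, Nectin1 and Afdn. Of 11 protocadherins outside the clusters, 5 were lower in PV pools and 0 higher, 3 were higher and 2 lower in PYC pools, 3 were higher in SST pools, led by Pcdh18 (3.20 ± 0.55), and 3 were higher and 1 lower in VIP pools, where Pcdh20 (2.87 ± 0.52) and Pcdh8 (2.65 ± 0.31) were higher. Of 11 tested large cadherin superfamily genes, 3 were higher and 3 lower in VIP, with Fat4 (2.58 ± 0.38) and Dchs2 (2.65 ± 0.69) higher, and 2 were higher and 1 lower in SST, with Fat1 (1.22 ± 0.16) higher. In PYC 3 were higher and 2 lower, and in PV 1 was higher and 4 lower. Of 6 genes of cadherin processing, the convertase gene Pcsk5 was higher in SST (1.36 ± 0.38) and lower in PV (-2.14 ± 0.49), and Furin was higher in PV (1.05 ± 0.27).

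The second comparison asked whether a cadherin differed between old and young mice within a neuron type. No cadherin was called in any type by edgeR, with 0 of 40 values at an adjusted p under 0.05 and 1 of 40 at an unadjusted p under 0.05. DESeq2 and limma-voom called 0 of 40 as well. Over all genes the edgeR calls were 0 in each type, or 0.0%, and an unadjusted p under 0.05 was found for 2.91% of 12508 genes in PYC, 2.32% of 12564 in PV, 2.87% of 12805 in SST and 2.98% of 12337 in VIP pools. Old and young ranges overlapped in all 40 cases. This overlap was not counted over all genes, so it shows nothing particular to the cadherins. The median log2 fold change of the 10, old over young, was -0.12 in PYC, 0.08 in PV, 0.03 in SST and 0.13 in VIP, beside 0.00, 0.00, -0.01 and 0.02 over all genes.

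Cdh4 in SST pools was the one value under an unadjusted 0.05. It had 27.8, 46.3 and 86.2 CPM as the lowest, median and highest of old SST pools, against 40.3, 60.3 and 169.5 CPM in young SST pools, and 11 of 12 old pools lay below the young median. The log2 fold change was -0.66 ± 0.29 (SE), with an unadjusted p of 0.0271 and an edgeR adjusted p of 1.0. Without young SST replicate 9, the pool at 169.5 CPM, it was -0.41 ± 0.30. Cdh7 in VIP pools had 12.96, 44.3 and 177 CPM in old, against 0.321, 26.04 and 72.8 CPM in young pools, a value of 1.03 ± 0.53 (edgeR unadjusted p = 0.0571, adjusted p = 1.0), with 10 of 12 old pools above the young median. Cdh18 in VIP pools had 1.17, 37.6 and 77.7 CPM in old, against 1.82, 12.5 and 51.4 CPM in young pools, a value of 1.05 ± 0.61 (edgeR unadjusted p = 0.0916, adjusted p = 1.0), with 11 of 12 old pools above the young median.

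**Figure D5:**
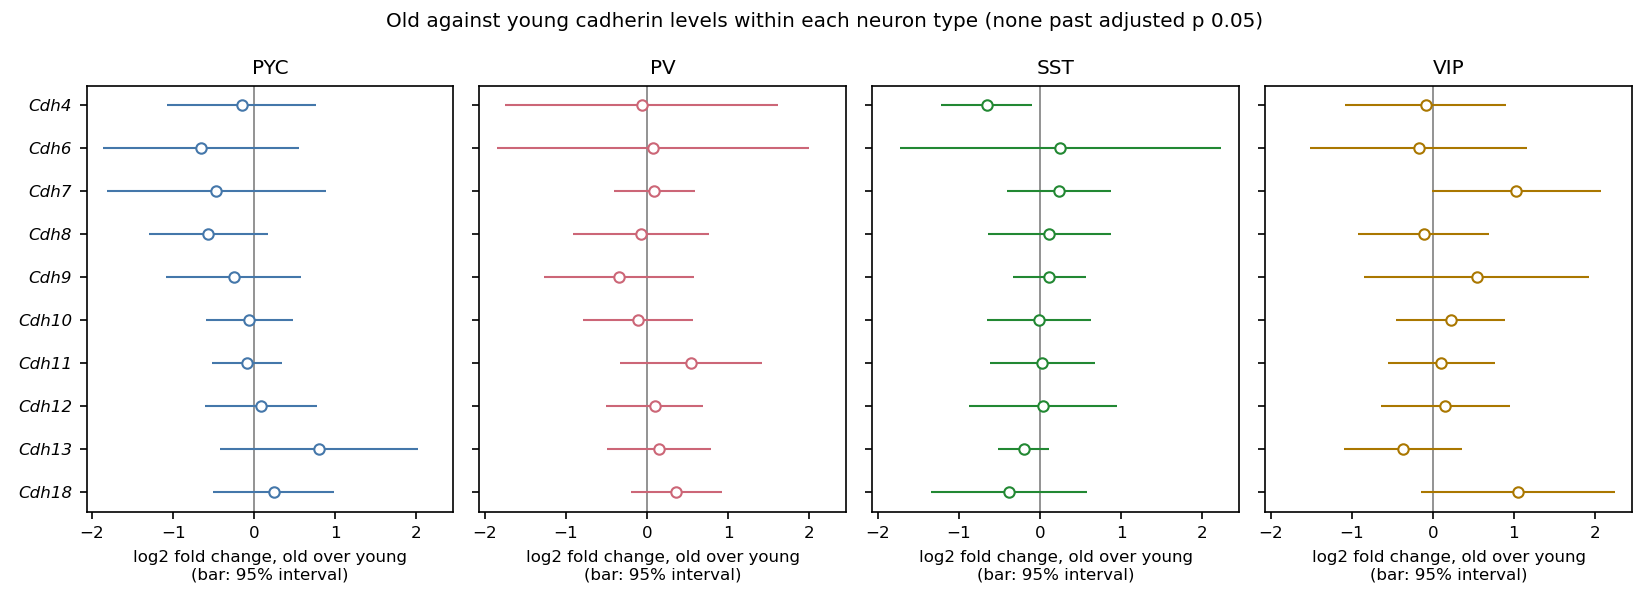
Log2 fold change of each cadherin in old over young libraries within each neuron type, with 95% intervals as bars. None had an edgeR adjusted p under 0.05, and the interval of 1 of the 40 values, Cdh4 in SST, lay wholly on one side of 0.

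The intervals set how large a difference could have been missed. For Cdh13 in SST, with the least spread, old pools had 272 ± 45.7 CPM (SD, n = 12) and young pools 313 ± 101 CPM (SD, n = 9), and the 95% interval of the log2 fold change ran from -0.52 to 0.11. For Cdh9 in SST, old pools had 118 ± 27.7 CPM and young pools 111 ± 52.2 CPM, with an interval from -0.33 to 0.56. For Cdh7 in PV, old pools had 106 ± 48.8 CPM and young pools 96.6 ± 28.0 CPM, with an interval from -0.41 to 0.59. For Cdh6 in SST the interval ran from -1.73 to 2.24. The edgeR test of whether the age difference itself varied between the 4 types called none of the 10, with unadjusted p from 0.173 (Cdh18) to 0.998 (Cdh12), where it called 5 of 15549 genes (0.0322%). A p above the threshold does not show that the age difference was the same in the 4 types.

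The type pattern was then read within each age, with the groups of the other age left out. All 15 calls against the mean of the other types had the same direction in old and in young libraries alone. These libraries are parts of the 83 that gave the calls, so this agreement in direction is no independent check. Of the 15, 8 were called in old libraries alone and 10 in young libraries alone. Cdh13 in SST was at 1.80 ± 0.31 (SE) in old and 2.21 ± 0.28 in young libraries, and Cdh9 in SST at 1.81 ± 0.28 in old and 1.68 ± 0.43 in young libraries. Cdh7 in PYC was at -2.42 ± 0.39 in old and -1.51 ± 0.45 in young libraries. Cdh4 in SST was at 1.02 ± 0.37 in old libraries (edgeR adjusted p = 0.154) and 1.59 ± 0.38 in young libraries (adjusted p = 0.00832), and Cdh18 in PV at 1.16 ± 0.30 in old (adjusted p = 0.00480) and 1.11 ± 0.40 in young libraries (adjusted p = 0.0781). Both calls of Cdh10, in PYC (adjusted p = 0.273 in old and 0.303 in young) and in PV (0.0660 and 0.393), that of Cdh7 in SST (0.0554 and 0.237) and that of Cdh9 in VIP (0.268 and 0.105) were lost by edgeR in either age alone. Cdh11 in PYC was called in young libraries (adjusted p = 0.0405) and not in old ones (adjusted p = 0.102).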

How the data were processed

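The authors deposited a table of raw, unnormalized counts for each Ensembl gene. The aligner HISAT2 and the build GRCm38 are named, per the submitters' processing notes. What counted the reads, with which annotation and strand setting, is not stated in the labels. Gene names, coordinates and exon lengths are from GENCODE M21 (GRCm38) and promoters from RefSeq (GRCm38.p6). The members and gene lists were chosen with earlier results of these data known. Libraries were grouped by the labels, which name no batch and do not say which mouse a library came from. Replicate numbers follow the order of the samples, and pools of 1 mouse were treated as independent.

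Types were compared with edgeR 4.0.16 in R 4.3.3 (TMM, filterByExpr with a minimum count of 10, robust quasi-likelihood F-test, 2-sided, Benjamini-Hochberg adjustment over all genes tested), in an additive model of type and age. Age was fitted within each type, and the interaction in a model of 8 groups. CPM uses the library total. Standard errors were derived from F. All 10 members were named, and the 3 genes with the highest Pearson r of log2(CPM + 1), leaving out Gm, Rik and pseudogene names, were taken as most alike (1 of these genes is not reported here); of other lists, the 4 members of smallest p could be named. The fits were tested on simulated counts with 2-fold and 4-fold changes in SST. The type fit found 34% and 55% of these. The age fit found 11% and 35%, and the interaction test 1% and 19%, so most simulated age changes of this size were missed. The changed genes were drawn at random from all genes that passed the type filter, and those the age filter dropped counted as missed. These rates therefore are not rates for the 10 cadherins. Alternatives were DESeq2 1.42.0, limma-voom (limma 3.58.1), other filters, RLE factors, the F number in the titles, whose meaning is not given, single ages and left-out libraries.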

Additional observations from a re-analysis of the deposited data

Results flagged for a closer look

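A library that stood apart from the others of its group was looked for in the 40 young groups of 8 or 9 libraries, and 6 were found. The limits used flag about 1 in 20 groups by chance only where values are normally distributed. That was not tested for CPM, so no excess over chance can be read from the 6. Groups of 12 old libraries were not tested in this way. In young SST pools, Cdh10 was at 137 CPM in replicate 7, the highest, with the next library at 84.4 CPM, and in the same library Cdh18 was at 1.07 CPM, the lowest, with the next at 38.8 CPM. Cdh4 was at 169.5 CPM in young SST replicate 9, with the next at 90.2 CPM. Cdh8 was at 149.7 CPM in young SST replicate 2, with the next at 84.8 CPM. Cdh13 was at 157 CPM in young PYC replicate 6, with the next at 78.3 CPM. Cdh9 was at 69.1 CPM in young VIP replicate 8, with the next at 30.1 CPM.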

How the results depend on the processing

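Of 40 values of a cadherin in a type against the other types, 15 were called, and 14 to 17 under each alternative except single ages, where 8 were called in old libraries alone and 11 in young libraries alone. Of 60 values between pairs of types, 22 were called, with 13 in young libraries alone and 17 to 32 under the other alternatives. Age gave 0 calls of 40 in every setting. Leaving out each library in turn gave 14 to 16 calls between types and 0 for age. Leaving out libraries for the pairs of types was not run.

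Uncalled values that changed sign were small. Cdh4 in PYC was 0.13 and Cdh13 and Cdh12 in VIP were 0.04 and -0.04 with limma-voom. In young libraries alone, Cdh9 and Cdh8 in PYC were 0.04 and 0.07 and Cdh13 in VIP was 0.29. Cdh7 in VIP was 0.08 in old libraries alone. Cdh12 in PV was -0.02 without the libraries low in mitochondrial counts and -0.06 with the F number. Leaving out 1 library gave a range of -0.08 to 0.07 for Cdh12 in PV, -0.15 to 0.01 for Cdh13 in VIP and -0.01 to 0.14 for Cdh11 in SST. The cause was not tested.

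No paired analysis was possible because replicate numbers follow the order of the samples and the labels do not tie libraries to mice. Of the 830 values of the 10 genes, 5 were 0, and a 0 allows a level up to what 3 counts stood for in its own library. Over all 83 libraries, not only those with a 0, this limit ran from 0.110 to 2.06 CPM. Some values rested on 1 or 2 counts and lie at this limit. Among them are the lowest values of Cdh6 in SST pools (1 count, 0.109 CPM) and in PV pools (2 counts, 0.268 CPM).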
